A study of Mus musculus with 3 samples.

Results

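The miR-297, miR-466, miR-467 and miR-669 families are groups of mouse microRNAs that resemble one another closely, many of them built largely of alternating U and G or A and C bases. They were measured in organoids of the mouse intestine, miniature epithelia that stem cells form in culture. Members were chosen by name: every array spot named after miR-297, miR-466, miR-467 or miR-669, with any following letter or arm, was taken, and a spot with several names counted once. This gave 71 of the 1265 microRNA spots of the array, carrying 80 names, 7 of these spots naming more than 1 microRNA. The other 1194 spots are the rest of the array.

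The study used 3 single-colour arrays, 1 for each group. The treated tumour array held RNA of organoids from ApcMin intestinal tumours after exposure to 1 uM 5-Aza-CdR, also called decitabine, which blocks DNA methyltransferases. The length of the exposure is not given here. ApcMin mice have a germline mutation that truncates the tumour suppressor Apc. The untreated tumour array held RNA from ApcMin tumour organoids without the drug, and the wild-type array RNA of organoids from the normal gut lining of wild-type mice. R-spondin 1, EGF and Noggin were present in the medium of every culture, which was free of serum, and the gel was Matrigel. The labels do not state how many mice or cultures stand behind an array, nor the age of the mice. With 1 array per group no difference below has a replicate check, no test was possible, and differences between arrays and between groups cannot be told apart.

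A microRNA is a short RNA that guides a silencing complex to messenger RNAs, which it recognises mainly through its seed, bases 2 to 8 from its 5′ end. Most members of these families lie in a large cluster of near-identical copies within an intron of Sfmbt2, a Polycomb-group gene that in mouse is imprinted and expressed from the paternal allele in extraembryonic tissues. The cluster is known for its expression in mouse placenta and embryonic stem cells, and losing it impairs the placenta. Placental tissue and stem cells of the embryo were not among the samples here.

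All 71 spots were matched by name to microRNA genes of RefSeq. The genes of 57 spots lay only inside the span of Sfmbt2, those of 9 only elsewhere in the genome, and 5 spots matched genes of both kinds, among them miR-466f, miR-466f-5p and miR-466f-3p. Mature sequences were held for 8 members, all encoded outside Sfmbt2. They are printed from RefSeq (GRCm38.p6), 5′ to 3′, with the seed in capitals, because they show the repeats that the families share and the small differences that set the seeds apart.
miR-466i-3p: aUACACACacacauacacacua
miR-466q: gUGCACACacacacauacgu
miR-467f: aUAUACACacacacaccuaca
miR-467g: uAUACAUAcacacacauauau
miR-466j: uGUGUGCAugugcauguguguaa
miR-466k: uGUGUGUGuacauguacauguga
miR-467h: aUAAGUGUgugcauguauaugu
miR-669n: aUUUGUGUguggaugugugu
The first 4 hold ACACAC and the last 4 hold UGUGUG. The 8 seeds were all different, so these 8 members could not be grouped by seed. Among the 1020 array spots with a matched sequence, only the seed of miR-467h was found again, in miR-668-5p. Sequences of the other members were not held, so whether they share a seed with these 8 or with one another was not looked up. The sequences ran from 20 to 23 bases with 23.8% to 50% G and C.

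In GRCm38.p6, miR-466i-3p lies at chr13:17747552-17747573 (plus strand) and miR-466q at chr3:28419988-28420007 (plus strand), within the spans of Cdk13 and Tnik. miR-467f lies at chr11:69635419-69635439 (minus strand) within the span of Fxr2, and miR-467g at chr5:34732872-34732892 (minus strand) within that of Grk4. miR-669n lies at chr3:115979905-115979924 (plus strand) within the span of Slc30a7, and miR-466k at chr3:85467396-85467418 (plus strand) within that of Gm31419. miR-466j at chr10:60960802-60960824 and miR-467h at chr9:115381898-115381919, both on the plus strand, lie in no other annotated gene. Whether a microRNA falls in an exon or an intron of its host was not looked up here.

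Such repeats also occur outside the families. UGUGUG occurred in 28 of 1679 mature mouse microRNAs of the RefSeq table (1.67%) and ACACAC in 11 (0.655%), on the strand of the microRNA. Among the 1020 array spots with a matched sequence, 20 held UGUGUG, of which 4 were members and 16 were not, and 11 held ACACAC, of which 4 were members and 7 were not. Only 8 of the 71 members had a sequence, against 1012 of the 1194 other spots, so most members are missing from these counts. A pair of microRNAs outside the families is printed for comparison, since both carry the UGUGUG repeat and both gave signal on every array.
miR-574-5p: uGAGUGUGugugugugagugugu
miR-1187: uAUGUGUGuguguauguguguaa
Probe sequences were not used here. Because a probe for 1 repeat-rich microRNA may also bind another, the value of a single member is uncertain.

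Brightness is given as the spot's median intensity minus the mean of the blank spots of its array, in scanner units. Blank means were 22.7 on the treated tumour, 29.5 on the untreated tumour and 27.3 on the wild-type array. A spot was called detected above the blank mean plus 2 SD. Members were then split by a stricter limit, the brightest of the 24 negative control spots of the same array, which stood 15.7 above blank on the treated tumour array, 23.6 on the untreated tumour array and 15.5 on the wild-type array. Members under that limit cannot be told from this control. The limit is set by 1 of 3 kinds of control, Negative Control 3: the 16 spots of the other kinds reached 4.49, 8.30 and 6.41 above blank on the same arrays, and 22, 21 and 18 members were brighter than these, as were 51.7%, 49.2% and 47.8% of all spots.

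Most members were dim. Detected were 40 of 71 on the treated tumour array, 48 on the untreated tumour array and 46 on the wild-type array, where 72.3%, 75.8% and 75.5% of all microRNA spots were detected. Brighter than the brightest negative control were 7 of 71 on the treated tumour array (9.86%, against 32.3% of all spots), 6 on the untreated tumour array (8.45%, against 32.4%) and 6 on the wild-type array (8.45%, against 32.7%). Over the 3 arrays, 9 members passed that limit at least once (12.7%), and 439 of the 1194 other spots did (36.8%). A further 44 members were detected on at least 1 array but stayed under the limit on all of them, and 18 were detected on no array. Detected at least once were 74.6% of members and 85.1% of all spots.

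The median member stood 2.42 above blank on the treated tumour array, 3.896 on the untreated tumour array and 3.23 on the wild-type array, where the other spots had medians of 5.50, 8.66 and 6.02. Members together held 0.130%, 0.147% and 0.139% of the detected signal of the same arrays. Brightness of different probes also depends on how each binds and labels, so these values describe spots and not abundance. Fewer cells with a microRNA and less of it per cell cannot be told apart in RNA of whole cultures.

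**Figure D1:**
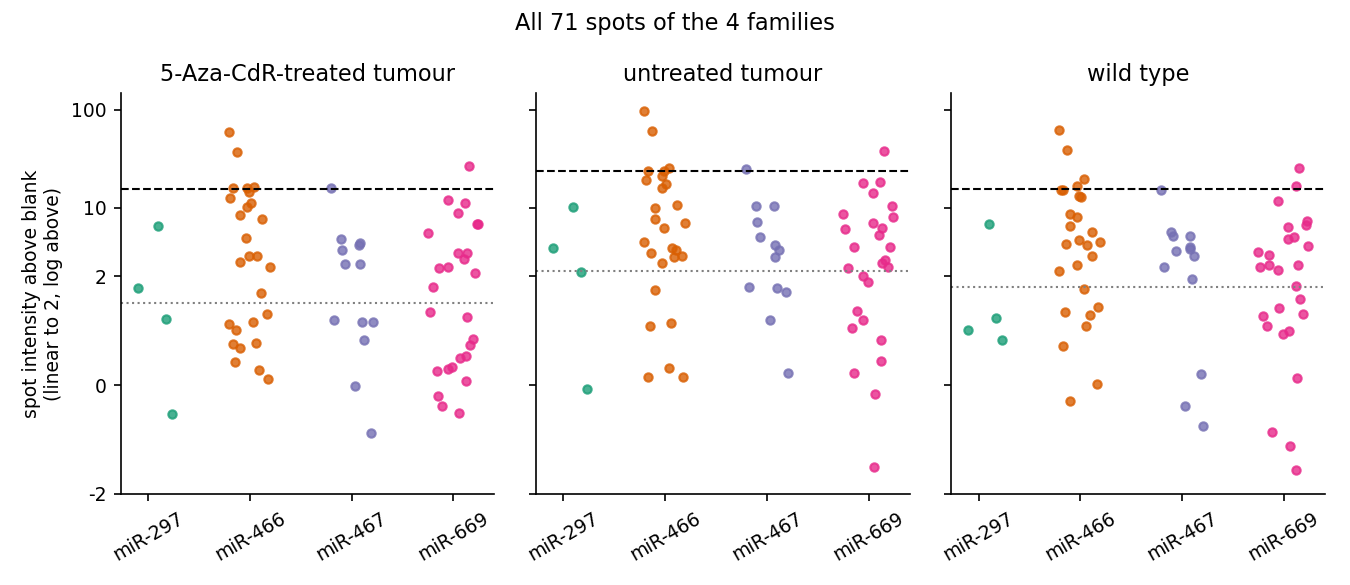
Intensity above blank of all 71 member spots by family (horizontal axis) on the 3 arrays (panels); the vertical axis is linear up to 2 and logarithmic above, each point is 1 spot, the dashed line is the brightest negative control and the dotted line the detection limit of that array. Most points lie under the dashed line on every array, and the points above it belong to miR-466, miR-467 and miR-669 and not to miR-297.

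Most members that passed the limit were of the miR-466 family. It had 27 spots, of which 6 were brighter than the brightest negative control on at least 1 array and 21 were detected at least once. These 6 are 22.2% of its spots, where 35.4% of all microRNA spots passed and 85.1% were detected at least once. miR-669 also had 27 spots, of which 2 passed the limit and 20 were detected. miR-467 had 13 spots, of which 1 passed the limit and 10 were detected. None of the 4 miR-297 spots passed it, and 2 were detected: miR-297a-5p, the brightest of the 4, stood at 6.55 on the treated tumour array, 10.1 on the untreated tumour array and 6.88 on the wild-type array.

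By genomic place, 3 of the 57 spots encoded only inside Sfmbt2 passed the limit on at least 1 array (5.26%), namely miR-466h-3p, miR-669c-3p and miR-669f-5p. Of the 9 encoded only elsewhere 3 passed (33.3%), namely miR-466i-5p, miR-466j and miR-467f. Of the 5 with genes in both places 3 passed (60%), the miR-466f spots, which all matched the same 4 genes. By arm, 3 of 30 spots named for a 5p arm, 3 of 29 for a 3p arm and 3 of 12 with no arm named passed. Over all microRNA spots 35.4% passed on at least 1 array. The shares of members come from few spots of related sequence and were not tested.

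A group of 4 members was brighter than the brightest negative control on all 3 arrays. miR-466i-5p, encoded within the span of Cdk13, was the brightest member, at 58.7 above blank on the treated tumour array, 96.2 on the untreated tumour array and 62.1 on the wild-type array. These values were 3.75, 4.08 and 4.02 times that of the brightest negative control of the same array, so relative to that control the 3 arrays lay close together. Its partner arm, miR-466i-3p, stayed under the limit on every array, at 10.3, 16.1 and 8.11 in the same order of arrays.

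miR-466h-3p, encoded inside Sfmbt2, stood at 36.8 on the treated tumour array, 61.3 on the untreated tumour array and 38.8 on the wild-type array. Its spot's own background value was 36.7, 71.9 and 57.2 on these arrays, against medians of 19.5, 29.4 and 28.95 over all microRNA spots. For miR-466i-5p that value was 56.7, 77.6 and 69.6. Intensity above blank does not subtract these values, so how far both spots stand above their surroundings is uncertain. The partner arm miR-466h-5p, which in hamster ovary cells has been described as promoting apoptosis, had 12.5, 19.1 and 15.3 on the same arrays and stayed under the limit on each. miR-669c-3p, also of the Sfmbt2 cluster, had 26.7 on the treated tumour array, 38.3 on the untreated tumour array and 25.3 on the wild-type array. miR-466f-5p had 16.4, 25.6 and 19.9 on the same arrays. All 4 were brightest on the untreated tumour array, as was the median of the other spots, and they kept the same order of brightness on every array.

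The other 5 members crossed the limit on some arrays only, and on the rest they stood at 0.719 to 0.998 times the brightest negative control. miR-467f, encoded within the span of Fxr2 and printed above, stood at 15.8 on the treated tumour array, 25.1 on the untreated tumour array and 15.2 on the wild-type array, above the limit on the first pair and 0.982 times the control on the wild-type array. miR-466j had 14.4, 24.0 and 13.05 on the same arrays and passed only on the untreated tumour array. miR-466f-3p had 16.03 on the treated tumour array, 23.5 on the untreated tumour array and 15.2 on the wild-type array and passed only on the treated one. miR-466f had 15.98, 21.2 and 16.8 on these arrays and passed on the treated tumour and the wild-type array. All 4 were highest on the untreated tumour array before scaling.

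miR-669f-5p, of the Sfmbt2 cluster, was the 1 member that passed only on the wild-type array. It stood at 11.3 above blank on the treated tumour array, 18.3 on the untreated tumour array and 16.7 on the wild-type array. Relative to the brightest negative control these values were 0.719, 0.777 and 1.08, so the untreated tumour array had the highest raw value and the wild-type array the highest relative one. Its partner arm miR-669f-3p had 5.51, 8.62 and 3.56 on the same arrays, under the limit on each and lowest on the wild-type array.

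**Figure D2:**
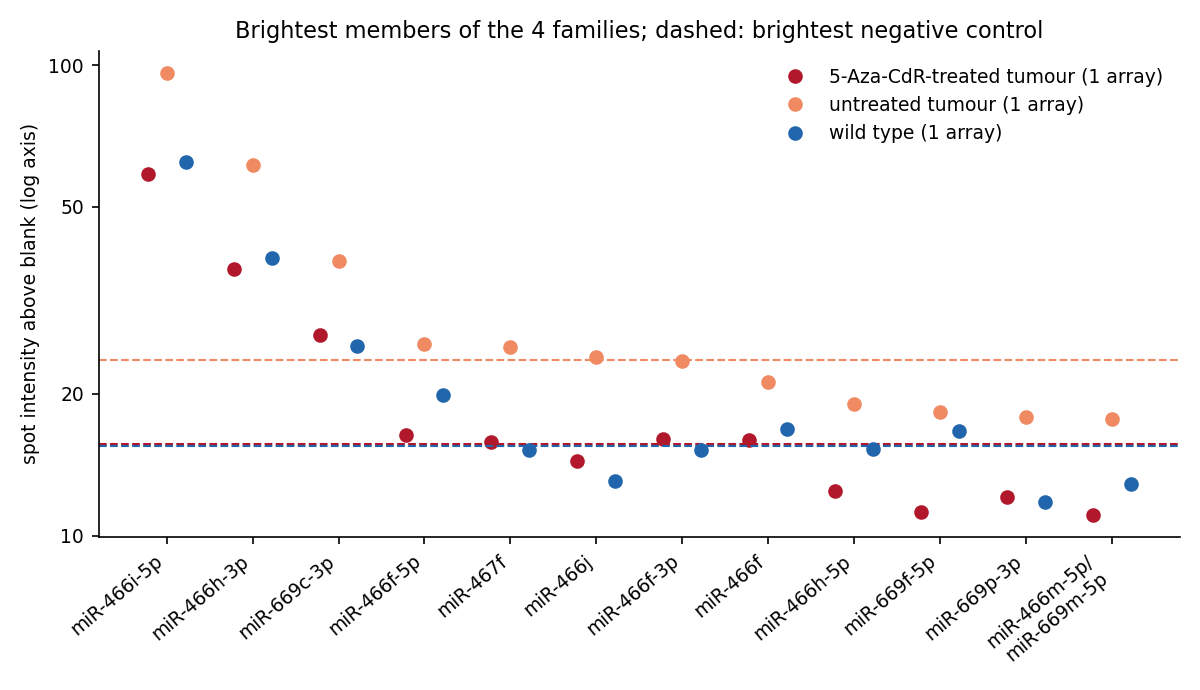
Intensity above blank (logarithmic vertical axis) of the 12 brightest member spots on the treated tumour, untreated tumour and wild-type arrays, 1 point per array; dashed lines mark the brightest negative control of each array in the same colours. miR-466i-5p, miR-466h-3p, miR-669c-3p and miR-466f-5p lie above the line of their array on all 3, and the untreated tumour array has the highest value for each of the 12.

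The spots just under the limit were miR-466h-5p, given above, miR-669p-3p and the shared spot of miR-466m-5p and miR-669m-5p. miR-669p-3p stood at 12.1 on the treated tumour array, 17.8 on the untreated tumour array and 11.8 on the wild-type array, and the shared spot at 11.1, 17.7 and 12.9. Among all 62 spots under the limit, values on the treated tumour array ran up to 12.5, with 31 detected. They ran up to 19.1 with 39 detected on the untreated tumour array, and up to 15.3 with 37 detected on the wild-type array.

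Of the 16 spots outside the families with UGUGUG, 6 passed the brightest negative control on at least 1 array, and of the 7 with ACACAC, 4 did, where 36.8% of all spots outside the families passed. These shares come from few spots and were not tested. miR-574-5p stood at 30.6 on the treated tumour array, 51.3 on the untreated tumour array and 35.3 on the wild-type array, and miR-1187 at 17.2, 29.9 and 17.6. Both were chosen because they gave signal on every array, and both were above the limit on all 3 arrays. Like the bright members and the median of all other spots, they were highest on the untreated tumour array. Of the 8 members printed above, 1 of the 4 with UGUGUG (miR-466j) and 1 of the 4 with ACACAC (miR-467f) passed the limit at least once.

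The 37 members detected on all 3 arrays ranked alike on each. Their log2 intensities above blank correlated at r = 0.94 between the treated and untreated tumour arrays (Spearman's rho 0.92), at r = 0.94 between the untreated tumour and wild-type arrays (rho 0.90) and at r = 0.90 between the treated tumour and wild-type arrays (rho 0.83). The 780 other spots detected on all arrays had r = 0.99, 0.97 and 0.96 in the same order and cover a far wider range of brightness. These are descriptions across spots that share an array, a scan and, for the families, much of their sequence.

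For comparisons between arrays, blank-fitted normexp with an offset of 50 was followed by quantile normalization and log2. The offset draws the differences of dim spots towards 0. A member at 62.1 above blank on the wild-type array, such as miR-466i-5p, would need a 2.80-fold higher signal to be counted as 2-fold, and miR-466j a 5.83-fold higher one. Differences are therefore also given with the blank mean subtracted and no offset. Several controls were spotted repeatedly, and the spread set beside the differences is that of Negative Control 3, spotted 8 times per array. It stood at 12.6 ± 1.86 above blank on the treated tumour array, 19.9 ± 2.18 on the untreated tumour array and 14.4 ± 0.931 on the wild-type array (SD over 8 spots). From these spots a difference of 2 arrays without the offset has a spread of 0.27 for treated against untreated tumour, 0.18 for untreated tumour against wild type and 0.23 for treated tumour against wild type (log2). It covers variation between spots of an array, not between cultures, extractions or hybridisations. Spots above the limit of an array are brighter there than the mean of this control, so the spread comes from a lower brightness than theirs. Most differences below follow quantile normalization. Those scaled to spike controls, negative controls or the median of commonly detected spots do not, nor do those in the authors' values. A member can therefore be higher after scaling on an array where its intensity above blank is lower. A member that passed the limit only on the array where it is high had to differ, so members above the limit on both arrays of a comparison are given first.

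The first comparison asked whether the families differ between tumour and normal organoids. None of the 53 members detected on at least 1 of the 2 arrays reached a 2-fold difference with the offset, where 27 of 1040 spots did (2.6%). The differences ran from -0.11 to 0.11 (log2), with a median of -0.002 against 0.003 over all spots. In tumour organoids 26 members were higher and 27 lower, where 540 of all spots were higher and 499 lower. Under spike control scaling 45 members were higher and 8 lower, as were 838 and 202 of all spots. Dim members could hardly have reached 2-fold with the offset.

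The 4 members above the limit on both the untreated tumour and the wild-type array lay between -0.22 and 0.006 without the offset (log2, tumour minus wild type): miR-669c-3p had 0.006, miR-466h-3p -0.003, miR-466i-5p -0.01 and miR-466f-5p -0.22. miR-466f-5p was beyond 1 spread. None of the 4 was beyond 2 spreads, where 50.8% of all 386 spots above the limit on both arrays were. Of the members above it on 1 of these arrays, miR-466j had 0.33 and passed only in tumour organoids, and miR-669f-5p had -0.42 and passed only in wild type. Each thus entered through the array where it was high, and its difference follows in part from that choice. With the spike controls as scale and the offset, all 8 members above the limit on either array were positive, from 0.03 (miR-669f-5p) to 0.37 (miR-466i-5p), where the median over all bright spots was 0.30. Of all 437 bright spots 371 were positive. When the background value of each spot was used in place of the blanks, miR-466i-5p moved to 0.43 and miR-669f-5p to -0.01.

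Dim members had larger apparent differences without the offset. Among members under the limit on every array, those farthest down with the offset were miR-669d-5p and miR-466h-5p, at -0.11 and -0.06, and without it at -1.28 and -0.23. miR-669d-5p stood at 4.02 above blank on the untreated tumour array and 6.66 on the wild-type array, both far under the brightest negative control, so its difference is uncertain. Farthest up were miR-669n at 0.11 and miR-466i-3p at 0.09, and without the offset at 0.70 and 0.51. miR-669n, printed above, had 14.2 on the untreated tumour array and 6.34 on the wild-type array. In all, 12 members were detected on 1 of these arrays and have only a lower bound, at most 1.02-fold on the scale with the offset, which says little about changes of dim spots. Counts of this kind, here and in the comparisons below, are not given over all spots and are not read as a trait of the families.

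The second comparison asked whether the families differ after exposure to the methyltransferase inhibitor. None of 49 members reached 2-fold, and 1 of 1015 spots did (0.0985%). With the offset, 17 members were higher and 32 lower in treated organoids, where 453 of all spots were higher and 545 lower. The members' differences ran from -0.07 to 0.11, with a median of -0.012 against -0.006 over all spots. Without it, the 5 members above the limit on both tumour arrays lay between -0.10 and 0.11, with a median of -0.03, and none was beyond 1 spread. Of all 391 spots above the limit on both arrays, 10.5% were beyond 2 spreads.

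Of these 5, miR-669c-3p had 0.11, miR-466f-5p -0.01, miR-466h-3p -0.03, miR-467f -0.05 and miR-466i-5p -0.10. miR-466f, which passed on the treated tumour array and not on the untreated one, had 0.22. With each spot's own background value, miR-466i-5p moved to -0.48. In the authors' values, where the median over all bright spots was -0.24, all 8 members above the limit on either array were negative, among them miR-669c-3p at -0.12 and miR-466f at -0.006. Of all 427 bright spots 317 were negative. The 2 members that were bright on every array and encoded only inside Sfmbt2, miR-466h-3p and miR-669c-3p, both differed by less than the spread of 0.27 without the offset.

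Among dim members those farthest up with the offset were the spot shared by miR-466b-3p, miR-466c-3p and miR-466p-3p (0.11) and miR-466c-5p (0.06). The shared spot had 4.89 above blank on the treated and 2.75 on the untreated tumour array, a difference of 1.56 without the offset, and miR-466c-5p had 8.52 and 10.003, a difference of 0.40 after normalization that was -0.06 with each spot's own background value. miR-669l-3p and miR-467b-3p, both at -0.07 with the offset, were farthest down. miR-669l-3p stood at 1.34 on the treated array, where it was not detected, and at 6.12 on the untreated array, a difference of -1.30 without the offset and a lower bound of 1.05-fold with it. miR-467b-3p, from a hairpin described as targeting lipoprotein lipase in mouse macrophages, had 4.18 on the treated and 10.4 on the untreated tumour array, a difference of -0.61 without the offset. In all, 10 members were detected on 1 of the 2 arrays, none with a bound above 1.05-fold on the scale with the offset.

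Treated tumour organoids were also set against wild type. None of 48 members reached 2-fold, and 27 of 1027 spots did (2.63%). With the offset 19 members were higher and 29 lower, from -0.13 to 0.10, with a median of -0.011 against -0.005 over all spots. Of all spots 492 were higher and 534 lower. Under spike control scaling 36 members were higher and 12 lower, as were 795 and 232 of all spots. Without the offset the 5 members above the limit on both arrays lay between -0.23 (miR-466f-5p) and 0.12 (miR-669c-3p), none beyond 1 spread, where 37.8% of all 381 such spots were beyond 2 spreads. miR-669f-5p, which passed only on the wild-type array and so entered through it, had -0.54, beyond 2 spreads. Of all 448 spots above the limit on any of the 3 arrays 40.8% were beyond 2 spreads. With the offset, miR-669f-5p had -0.13, which turned positive (0.03) under spike control scaling, where the median over all bright spots was 0.32, and was 0.01 with each spot's own background value. This comparison shares its arrays with the other 2, so the low value of miR-669f-5p here and in untreated tumour organoids rests on the same wild-type spot.

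The dim members farthest down against wild type were miR-669d-5p and miR-466d-5p, at -0.12 and -0.10 with the offset and -1.36 and -1.07 without it. miR-669d-5p had 2.16 above blank on the treated tumour array and 6.66 on the wild-type array, and miR-466d-5p had 2.77 and 6.58. Farthest up were the spot of miR-669a-3p and miR-669o-3p, at 0.10 with the offset, and miR-669n, at 0.09, or 0.90 and 0.60 without it. miR-669a has been described as repressing the muscle regulator MyoD in mouse cardiac progenitors. Its spot stood at 6.77 on the treated tumour array and 4.07 on the wild-type array. All 4 lay under the brightest negative control on every array, and 10 members were detected on 1 of the 2 arrays, none with a bound above 1.05-fold on the scale with the offset.

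**Figure D3:**
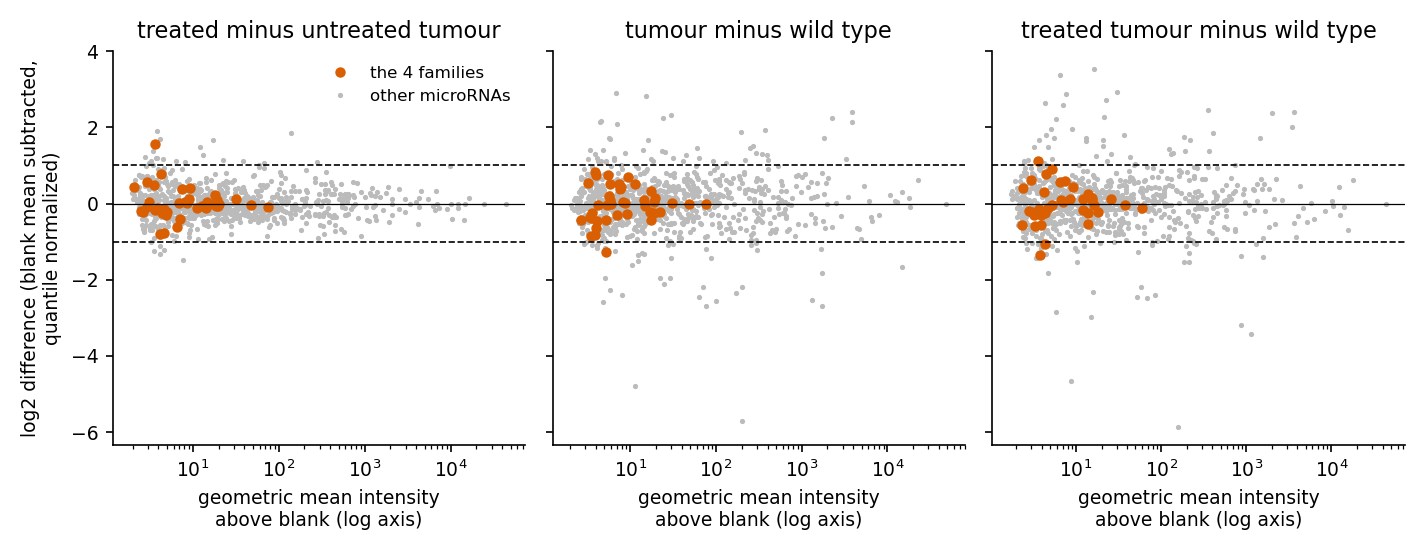
Difference between 2 arrays (vertical axis, log2, blank mean subtracted and quantile normalized, no offset) against the geometric mean intensity above blank of the 2 arrays (horizontal axis, logarithmic) for members (orange) and other microRNA spots (grey); dashed lines mark 2-fold. Only spots detected on both arrays of a comparison are drawn. This leaves out members that also passed 2-fold. For tumour against wild type these are miR-669e-3p, miR-669h-3p and the shared spots of miR-466b-5p and miR-297b-3p. For treated against untreated tumour they are miR-466o-3p, miR-466q, miR-467c-3p, miR-669b-5p, miR-669j and miR-669l-3p. For treated tumour against wild type they are miR-466k, miR-467c-3p, miR-669d-3p, miR-669e-3p and the shared spot of miR-297b-3p. Every member drawn beyond a dashed line has a low mean intensity, and the members at the bright end of their range lie near 0 in each comparison.

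The cultures were checked against markers of the gut lining and of other cells. All 8 listed microRNAs of intestinal epithelium passed the brightest negative control on every array, with summed intensities above blank of 4416, 6748 and 11068 on the treated tumour, untreated tumour and wild-type arrays. miR-192-5p, miR-194-5p and miR-215-5p had 2210, 3483 and 1241 on the wild-type array and 800, 877 and 33.4 on the untreated tumour array. The other markers on this list went the other way: miR-200a-3p, miR-200b-3p, miR-200c-3p, miR-141-3p and miR-429-3p were each higher on the untreated tumour than on the wild-type array. Of 4 markers of smooth muscle and fibroblasts 1 passed on each array (miR-214-3p), with sums of 32.7, 43.7 and 62.0 in that order. Of 6 blood cell markers 1 passed (miR-223-3p), with sums of 28.6, 66.5 and 32.4, while miR-150-5p was detected under the limit at 11.2, 19.7 and 7.03 and the other 4 stood within 3 units of blank. None of 2 endothelial markers passed, with sums of 5.44, 11.7 and 7.18, and none of 3 neuronal markers, with sums of 7.76, 8.38 and 8.58. The part of other cells in the members' signal was not tested.

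The medians of the bright members moved with the choice of scale, as those of all bright spots did. With the offset, the 8 members that passed the limit on at least 1 of the 2 arrays of a comparison had medians of -0.008 for treated against untreated tumour, -0.004 for tumour against wild type and -0.011 for treated tumour against wild type. Under spike control scaling the last 2 became 0.20 and 0.19, where the medians over all bright spots became 0.30 and 0.32. In the authors' values the 3 medians were -0.26, 0.18 and -0.12, and those over all bright spots were -0.24, 0.19 and -0.06. The direction of so small a median thus followed the scale.

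**Figure D4:**
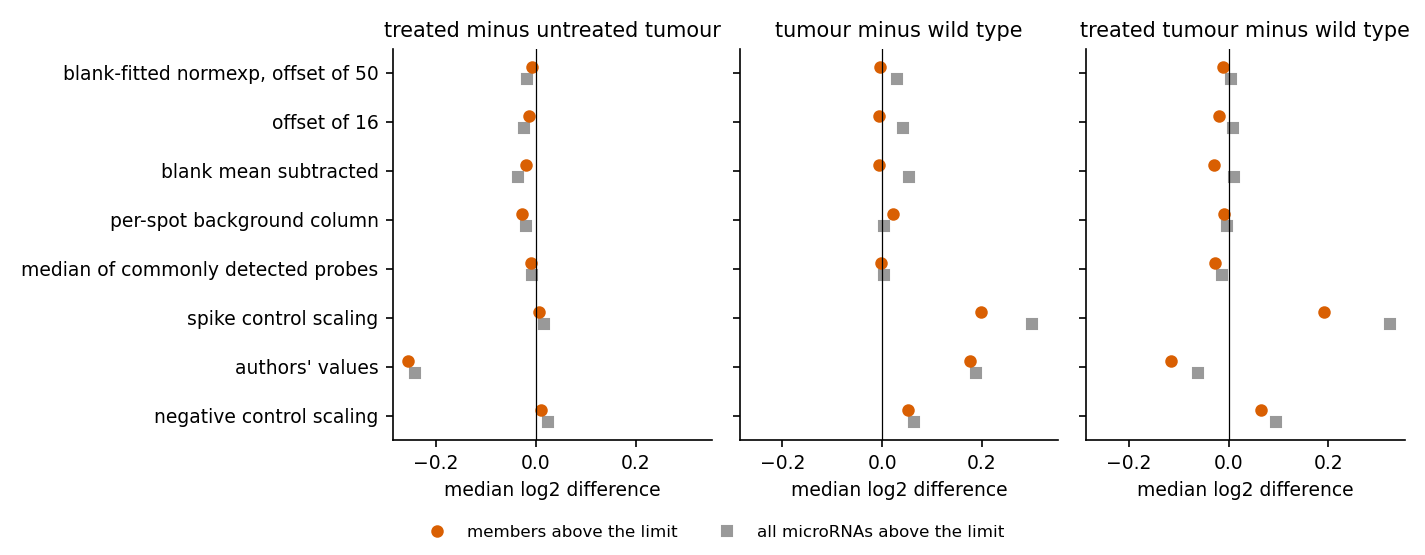
Median log2 difference (horizontal axis) of the 8 members above the brightest negative control on at least 1 of the 2 arrays (circles) and of all microRNA spots above it (squares), for 3 comparisons (panels) under 8 ways of correcting and scaling the arrays (rows). The circles lie near 0 in the first 5 rows and follow the squares under spike control scaling and in the authors' values.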

How the data were processed

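Per the labels' protocols, the mirVana kit gave total RNA, and the miRCURY LNA kit was used for labelling with Hy5. Per the file headers, the deposited intensity is a spot's median at 635 nm over 3 gains, before any background subtraction. The authors' own table gives an intensity on a linear scale, which matches the spot median less a blank level, scaled on each array to a median of 25 among listed spots. The sources used here do not give the array design, probe sequences or scanner software.

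Background was corrected in limma 3.58.1 (R 4.3.3) by normexp, with its background taken from 1664 blank spots and an offset of 50, and 1265 microRNA spots were quantile normalized and put on the log2 scale. Blank means and SDs left out 5% of spots at each end. 2 spots marked as bad on the wild-type array, neither a member, were left out. Counts at 2-fold cover spots detected on at least 1 of the 2 arrays. The steps were tested on simulated data. The recovery of changes at 2-fold was required only for spots far brighter than any member. That test therefore does not tell whether changes of members would be found. Python 3.11.15 with numpy 2.4.6, pandas 2.3.3 and matplotlib 3.10.9 did the rest. A single array per group allowed no test, and the number of arrays limits the precision.

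The members, the marker lists and the rule for named spots were chosen with earlier results of these data known. Named were all members above the brightest negative control on at least 1 array, the 3 brightest under it and the 2 largest differences in each direction per comparison. Partner arms, miR-297a-5p and the comparison microRNAs were added after their values were seen. RefSeq names, places and sequences are those of GRCm38.p6. Alternatives were an offset of 16, the blank mean subtracted, the per-spot background column, scaling to the median of commonly detected spots, to spike controls or (chosen after seeing the data) to negative controls, the authors' values, other limits and a 1.5-fold threshold.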

Additional observations from a re-analysis of the deposited data

How the results depend on the processing

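The count of members at 2-fold, 0 in each comparison, changed without the offset and in the authors' values. With the blank mean subtracted it was 5 in tumour against wild type (3 higher, 2 lower), 7 in treated against untreated tumour (2 and 5) and 8 in treated tumour against wild type (3 and 5), where 19.4%, 12.6% and 21.9% of all spots reached 2-fold, and none of these members was above the brightest negative control. The 5 were miR-669d-5p, miR-669e-3p, miR-669h-3p and the shared spots of miR-466b-5p and miR-297b-3p, of which the last 4 were named after their values were seen. In the authors' values the counts were 1 (miR-669d-5p), 3 (miR-466d-5p, miR-466g and the shared spot of miR-466b-3p) and 2 (miR-669d-5p and miR-466d-5p), where 10.3%, 5% and 11.8% of all spots did. The median of bright members in tumour against wild type became 0.198 with spike controls as scale, 0.175 in the authors' values and 0.053 with negative controls as scale; in treated tumour against wild type it became 0.191, -0.115 and 0.066; in treated against untreated tumour it became -0.257 in the authors' values. Members past the limit numbered 40, 48 and 46 on the treated tumour, untreated tumour and wild-type arrays with the blank mean plus 2 SD as limit, 36, 40 and 37 with 3 SD, and 22, 21 and 18 with the brightest spot of Negative Controls 1 and 2 (chosen after seeing the data), in place of 7, 6 and 6. On the scale with the offset, Negative Control 3 gives a spread of 0.0622 for treated against untreated tumour (log2). It is 0.0497 for tumour against wild type and 0.0477 for treated tumour against wild type. Every setting was judged by these smaller spreads, also those without the offset. With the median of commonly detected spots as scale, 63 of 63 differences of named members moved by less than them. With negative controls as scale 57 did, and with the offset of 16 it was 34. The per-spot background column gave 32, spike controls 28 and the blank mean subtracted 15. In the authors' values 8 of 61 did. The causes were not tested. No paired analysis was possible because each group has 1 array.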
